A study of Drosophila melanogaster with 24 samples.

Results

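The eye pigment genes of Drosophila melanogaster described here are w, bw, st, cn, v, ry, mal and pn, 8 of the 15406 genes counted in each of 24 RNA-seq libraries from adult gonads. They were chosen by symbol, and they were proposed with their group levels in these libraries in view, so their levels and differences are given as a description with no test. The study asked which transcripts change when the isoform of DSX, the transcription factor at the end of the sex determination cascade, is switched acutely in the adult gonad. Ovaries came from XX flies carrying the temperature-sensitive combination tra2[ts1]/tra2[ts2] in a w1118 background (called tra2ts) or from homozygous w1118 flies (called w1118). Testes came from XY flies (called TraF) that were y1 w* and carried the UAS-Tra.F element 20J7 together with the tubP-GAL80ts element 7 and the tubP-GAL4 element LL7, or from flies with the same GAL80ts and GAL4 elements and no UAS-Tra.F (called Control). GAL80ts, an inhibitor of GAL4, fails at the higher temperature, and GAL4 then turns on the female form of tra. The tubulin promoter drives GAL4 in nearly all cells, so the switch was not confined to the pigment cells or to the gonad. All flies were raised at 18 °C, shifted at 5 days of age to 29 °C (ovary) or 30 °C (testis), and dissected after 0, 12 or 24 h. These temperatures come from the extraction protocol in the labels, which names them for tra2ts and UAS-TraF; the treatment protocol gives 29 °C for all flies. Each of the 12 groups holds 2 libraries from independent dissections, and late egg chambers had been removed from the ovaries. Both ovary genotypes carry w1118, a deletion that removes part of w. TraF carries w*, a w allele that is not specified, together with 3 elements marked with w+mc (mini-white, a shortened working copy of w used as a marker). Control carries 2 w+mc elements, and its own w allele is not given in the sources used here.

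Fly eye colour comes from brown ommochromes, made from tryptophan, and red pteridines, made from GTP. The products of w, bw and st are half-size transporters of the ABCG family: the w protein pairs with the st protein to carry ommochrome precursors and with the bw protein to carry pteridine precursors. The enzymes encoded by v (tryptophan 2,3-dioxygenase) and cn (kynurenine 3-monooxygenase) act early in ommochrome synthesis. On the purine and pteridine side, ry encodes xanthine dehydrogenase, mal encodes the enzyme that adds sulfur to the molybdenum cofactor of that dehydrogenase, and pn encodes a phosphodiesterase whose loss turns eyes brownish purple. In the gonad, the yellow pigment cells of the testis sheath need w for their colour, and the ovary has no such layer. The Malpighian tubules, which lie close to the gonads, also use this pathway.

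The libraries held 16136939 to 32782474 counts assigned to genes, and levels are given as each gene's share of that total, in CPM. Sox100B, which marks the male-specific pigment cell precursors, stood at 3.11 to 9.44 CPM in testes and at 0 to 0.120 CPM in ovaries. The summed level of 11 eye genes was 31.7 to 92.2 CPM in ovaries and 48.4 to 59.9 CPM in testes. Of these, ninaE (the main rhodopsin) stayed at or below 1.23 CPM in all 24 libraries, norpA stood at 30.5 to 85.2 CPM in ovaries and 6.56 to 12.1 CPM in testes, and Rh4 (14.0 to 20.9 CPM) and Arr1 (14.2 to 24.8 CPM) led in testes. Control 12 h replicate 1 held accessory gland transcripts, with a sum of 2654 CPM against a Control median of 10.2 CPM. Control 0 h replicate 1 held gut protease transcripts, with alphaTry at 7.27 CPM against at most 0.344 CPM in the other 5 Control libraries. These 2 testis libraries stood apart. In Control testes, the shift changes of bw, st, cn, ry and the called pathway genes are given with and without them. Most other results are given with them only. The sum of all 8 gut markers, which in the shifted testis libraries came mostly from the amylase genes Amy-p and Amy-d, did not single out that library but was higher at later hours. It was 31.6 and 21.5 CPM at 0 h, 71.6 and 76.2 CPM at 12 h, and 101 and 124 CPM at 24 h in Control, and 2.73 and 3.01, 19.97 and 17.2, and 39.1 and 29.4 CPM in TraF. Among the 12 ovary libraries, w1118 24 h replicate 1 was highest for all 8 gut markers. Its sum was 8.02 CPM, against a w1118 median of 0.679 CPM and at most 3.46 CPM in tra2ts. That ovary library was left out only in the fits that left out each library in turn. As a check of the labels, tra, which the testis transgene carries, stood at 20.5 and 21.7 CPM at 0 h and at 209 to 284 CPM after the shift in TraF, against 5.69 to 10.5 CPM in Control.

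Per kilobase of exon, the order of the 8 genes differed between ovary and testis. In w1118 ovaries, pn (15.0 ± 1.44 CPM per kb, SD, n = 6) and mal (13.2 ± 3.05) led, and their ranges overlapped. They were followed by st at 0.871 ± 0.263 CPM per kb, and cn, w and v came next between 0.170 and 0.196 CPM per kb with overlapping ranges. Last were bw (0.0392 ± 0.0259 CPM per kb) and ry (0.0391 ± 0.0295 CPM per kb). In tra2ts ovaries bw, at 8.60 ± 1.87 CPM per kb, stood between mal (14.0) and st (0.850), apart from both ranges. The levels of v (0.490), w (0.384) and cn (0.195) followed with overlapping ranges, and ry (0.105) was last. In Control testes, w led with 21.1 ± 2.72 CPM per kb, above the whole range of pn (12.4 ± 1.59). Then came mal (2.02), ry (1.74) and bw (1.54), whose ranges overlapped, and then cn (0.785), v (0.642) and st (0.485), whose ranges overlapped as well. TraF testes had the same order, from w at 26.5 ± 4.21 to st at 0.253 ± 0.180 CPM per kb.

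**Figure D1:**
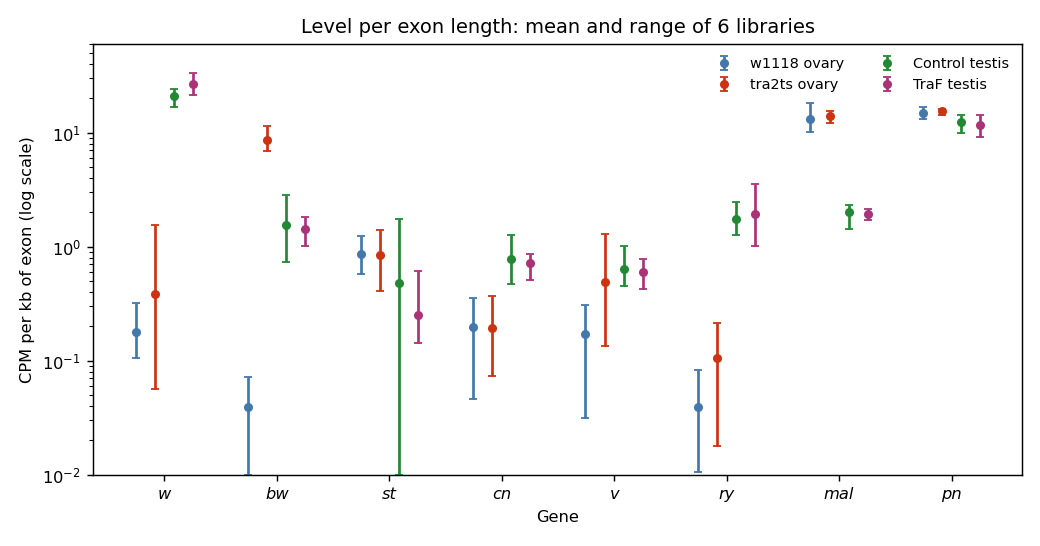
Level of each gene in CPM per kb of exon on a log axis, as the mean (point) and range (bar) of 6 libraries per genotype over all times; bars that reach 0 run to the lower edge. The w level is 21.1 and 26.5 in the testis genotypes and below 0.4 in the ovaries, and bw is 8.60 in tra2ts ovaries against 0.0392 in w1118 ovaries.

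Between the control gonads, w, bw, ry, cn and v were lower in w1118 ovaries than in Control testes, mal was higher, and the 6 libraries of each did not overlap for these 6 genes. Over all 12411 genes tested, 35.8% were called higher and 54% lower in w1118 ovaries (edgeR's quasi-likelihood test, adjusted p under 0.05), so a tissue difference was the rule rather than a property of these genes. Pooled over the 6 libraries, w had 6749 counts in Control testes and 63 in w1118 ovaries, a CPM ratio of 114.6 (95% interval 89.4 to 149). The ratio was 45.1 (30.4 to 70.1) for ry, 38.1 (23.3 to 67.1) for bw, 3.84 (2.81 to 5.34) for cn and 3.78 (2.53 to 5.78) for v. These intervals cover counting error only, since reads without molecular identifiers are not independent molecules. The ratio was 0.157 (0.146 to 0.168) for mal, which is the only one of the 8 genes with lower testis levels in every library. The libraries overlapped for st and pn. The fitted log2 fold change of pn was 0.07 (SE 0.0951) with TMM scaling (trimmed mean of M values) and -0.24 with RLE scaling (relative log expression). The median over all genes was -0.81 under the first scaling and -1.13 under the second, so that every tissue fold change shifts by about the difference between them. The tissues also differ in genotype, w alleles and, by the extraction protocol, temperature of the shift. In whole organs, fewer cells of a type and less RNA per cell cannot be told apart.

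The w transcript was high in testes and close to absent in ovaries. It stood at 52.6 and 39.1 CPM at 0 h, 45.5 and 52.4 CPM at 12 h, and 57.4 and 50.8 CPM at 24 h in Control testes. In TraF testes it stood at 50.2 and 57.2 CPM at 0 h, 78.2 and 60.9 CPM at 12 h, and 58.2 and 69.1 CPM at 24 h. The 2 genotypes overlapped at 0 h, and at 12 h and at 24 h both TraF libraries were above both Control libraries. Averaged over times, w was higher in TraF by 0.38 on the log2 scale (SE 0.109), and the pooled count ratio was 1.28 (1.24 to 1.32). Of 12083 genes tested, 2.3% were called higher and 3.06% lower in TraF. The deposited counts hold 1 value for w, so reads from the w allele at its own place and from the 3 (TraF) or 2 (Control) mini-white markers cannot be told apart, and the number of markers differs with the genotype. The gut marker sum was 21.5 to 124 CPM in Control and 2.73 to 39.1 CPM in TraF, and its part in the result was not tested.

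In ovaries w stood at 0.249 to 0.756 CPM in w1118, from 6 to 19 counts per library. In tra2ts it stood at 0.644 and 0.222 CPM at 0 h, 0.308 and 3.66 CPM at 12 h, and 0.450 and 0.133 CPM at 24 h. The 12 h replicate 2 library, with 95 counts, stood apart from the other 5, which had 3 to 20 counts. The fitted genotype difference for w, 0.53 on the log2 scale (SE 0.631), became -0.42 without it. None of the markers of Malpighian tubule, fat body, gut, muscle sheath or accessory gland was highest in that library among the 12 ovary libraries.

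**Figure D2:**
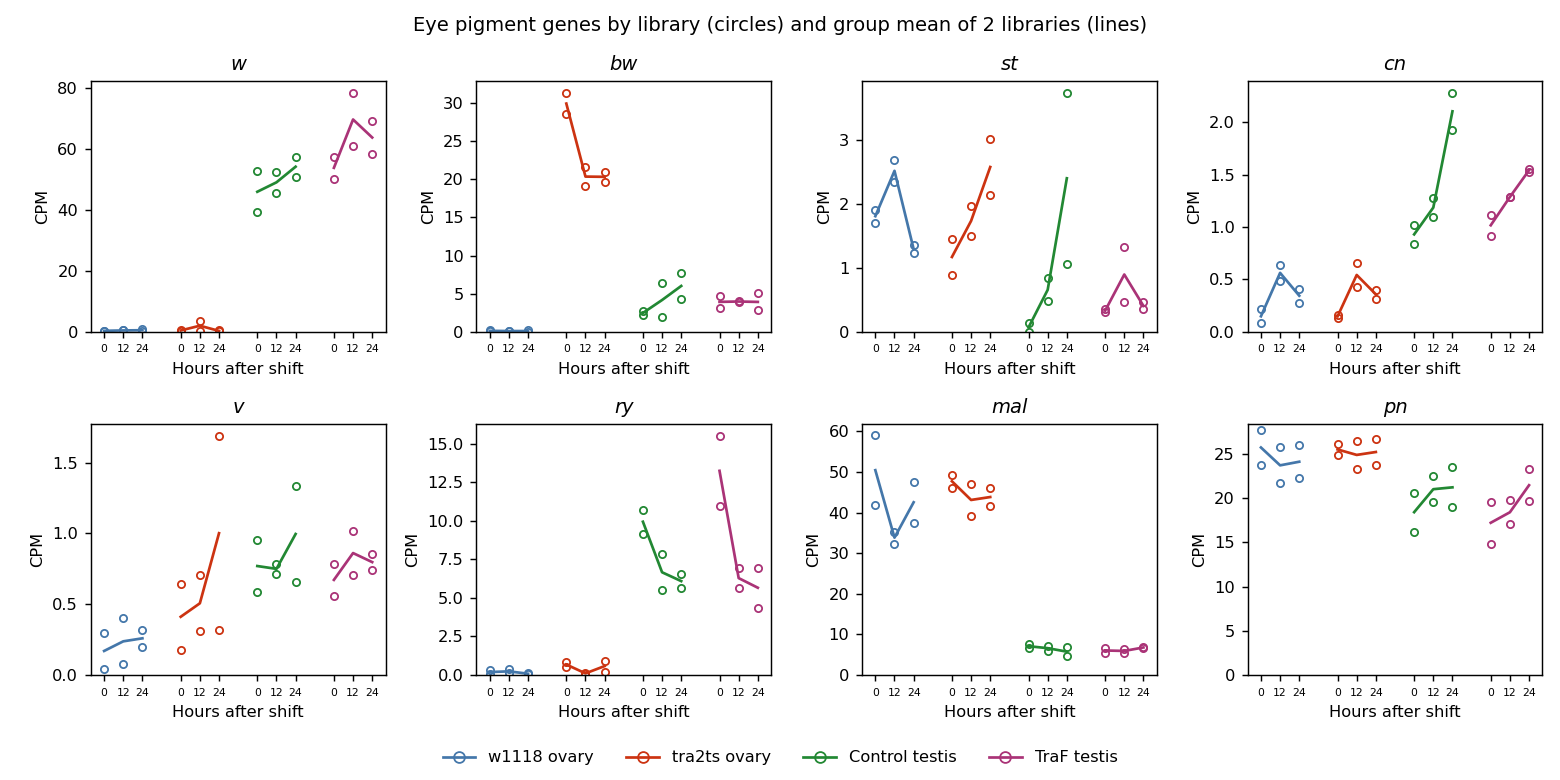
CPM of each gene in each library (circles) by hours after the shift and genotype, with lines through the means of the 2 libraries; each panel has its own axis starting at 0. The tra2ts ovaries hold 19.1 to 31.3 CPM of bw and the w1118 ovaries at most 0.199, ry is highest at 0 h in both testis genotypes, and st is highest in Control 24 h replicate 2.

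The largest difference between genotypes in the same tissue was that of bw in the ovary. In w1118 ovaries bw had 2, 4, 2, 3, 0 and 5 counts per library, which is at most 0.199 CPM, and the count of 0 allows up to 0.137 CPM (3 counts) in that library. In tra2ts ovaries it stood at 28.6 and 31.3 CPM at 0 h, 19.1 and 21.6 CPM at 12 h, and 19.7 and 21.0 CPM at 24 h. All 6 tra2ts libraries were above all 6 w1118 libraries, by a pooled count ratio of 218 (134 to 382) and a log2 fold change of 7.60 (SE 0.363). Over all genes, 2.58% were called higher and 1.43% lower in tra2ts of 8784 tested. Leaving out each library in turn gave log2 fold changes from 7.30 to 9.09, with the highest without w1118 24 h replicate 2. The difference was present before the shift: the pooled ratio was 236 (108 to 644) at 0 h, 212 (90.6 to 655) at 12 h and 192 (81.8 to 591) at 24 h. Within tra2ts the 4 shifted libraries lay below the 2 libraries at 0 h, with log2 fold changes of -0.65 (SE 0.409) at 12 h and -0.57 (SE 0.409) at 24 h. In the same libraries the muscle sheath marker sum was 1481 and 1830 CPM at 0 h and 609 to 1050 CPM after the shift, and the Malpighian tubule sum was 232 and 239 CPM at 0 h and 149 to 195 CPM after it. Most of the tubule sum came from ZnT35C (97.7 to 174 CPM in tra2ts) and Alp4 (19.3 to 124 CPM). The tubule markers Uro and Irk3 were instead highest in 24 h replicate 2, at 12.1 and 2.62 CPM, where the sum was 149 CPM. The part of muscle sheath and tubule transcripts in the lower bw level was not tested.

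The tra2ts level of bw was also above that in testes, where no library exceeded 7.74 CPM. The other 7 pigment genes did not follow it in the ovary: st (-0.13, SE 0.215), cn (-0.07, SE 0.356), mal (0.04, SE 0.12) and pn (-0.03, SE 0.114) had fitted genotype differences within 1 SE of 0 on the log2 scale. The differences of v (1.38, SE 0.649) and ry (1.08, SE 0.593) were between 1 and 3 SE, and both genes had overlapping libraries. The muscle sheath marker sum was 609 to 1830 CPM in tra2ts against 227 to 799 CPM in w1118 ovaries, and its part in these values was not tested. Since tra2, bw and cn lie on the same chromosome, the tra2 alleles and any other difference between the 2 stocks cannot be told apart.

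The genes near bw that were high enough to test did not share its difference. In a later annotation of the genome (BDGP6, not the dm3 build of the deposited counts), bw lies on arm 2R, and its exons share 456 bases with mi, a gene on the other strand. The library kit does not mark strand, so in that stretch reads of bw and mi cannot be told apart. In w1118 ovaries mi stood at 43.2 to 84.7 CPM and in tra2ts at 47.7 to 113 CPM, and its genotype difference was 0.18 on the log2 scale (SE 0.173, adjusted p = 0.88). Of the 6 nearest annotated genes on each side, 5 were high enough to test (RabX1, mi, AIMP3, wmd and levy), and none was called, with adjusted p from 0.77 to 0.99 and log2 fold changes from -0.24 to 0.18. The other 7 stayed at or below 0.676 CPM in every ovary library and were not tested. Among them, ppk3, Gr59e and Gr59f, next to bw on one side, had means of 0.172, 0.103 and 0.139 CPM in tra2ts. Their means in w1118 were 0.0464, 0.0404 and 0.0530 CPM. CG3906, on the other side, went the other way (0.0147 CPM in tra2ts, 0.127 CPM in w1118). These levels rest on few counts.

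**Figure D3:**
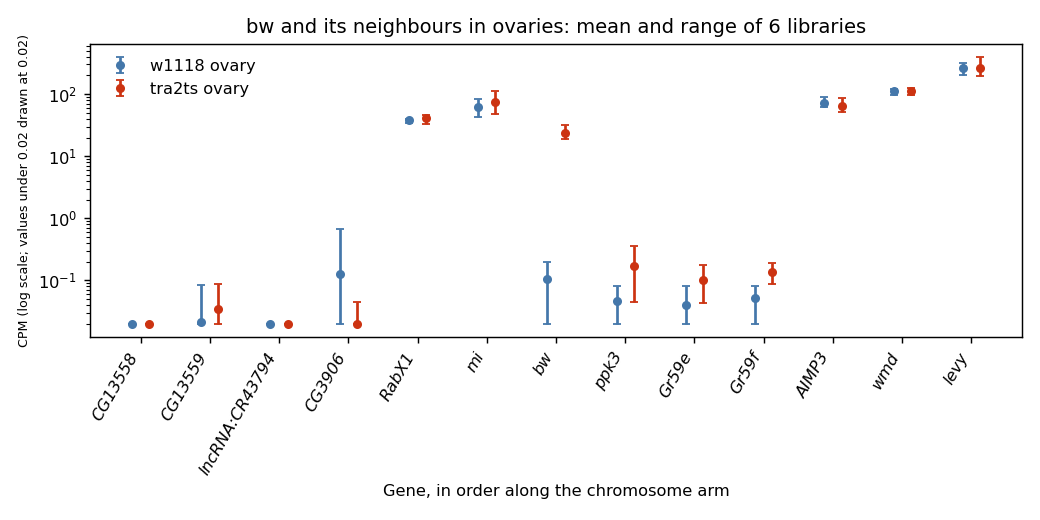
CPM in ovaries of bw and the 6 annotated genes on each side, in their order along the chromosome arm, as the mean and range of 6 libraries per genotype on a log axis with values under 0.02 drawn at 0.02. The bw ranges lie far apart (at most 0.199 against 19.1 to 31.3), and those of mi, RabX1, AIMP3, wmd and levy overlap.

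In testes bw was low in both genotypes. In Control it stood at 2.19 and 2.75 CPM at 0 h, 6.34 and 1.99 CPM at 12 h, and 7.74 and 4.29 CPM at 24 h. In TraF it stood at 4.71 and 3.14 CPM at 0 h, 3.95 and 4.0 CPM at 12 h, and 5.03 and 2.80 CPM at 24 h. The genotypes overlapped over all times, and the fitted difference was 0.04 (SE 0.269) on the log2 scale. In Control both 24 h libraries were above both 0 h libraries (1.26, SE 0.473), while the 12 h libraries lay on either side of them. In TraF the hours overlapped, and the 24 h difference was -0.01 (SE 0.469). Averaged over 12 and 24 h the change in Control was 0.99 (SE 0.424), and it was 0.23 without both Control libraries that stood apart, of which the one at 12 h had the second highest bw. The same change in TraF minus that in Control was -0.96 (SE 0.582), and -0.18 without those libraries. The gut marker sum was higher at later hours in both genotypes, and its part in these values and in those of st, cn and ry over the hours was not tested.

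The st transcript, the ommochrome transporter partner of w, was low everywhere, and in Control testes it was higher at later times. It had 0 and 4 counts at 0 h (0 and 0.136 CPM, where the count of 0 allows up to 0.126 CPM), 17 and 10 counts at 12 h (0.836 and 0.474 CPM), and 26 and 67 counts at 24 h (1.06 and 3.73 CPM). The hours did not overlap in this order, and the pooled ratio over 0 h was 8.68 (3.03 to 34.1) at 12 h and 29.2 (11 to 110) at 24 h. In TraF testes st stood at 0.310 and 0.349 CPM at 0 h, 0.469 and 1.32 CPM at 12 h, and 0.458 and 0.350 CPM at 24 h. There the 12 h libraries lay above the others, and the pooled ratio at 24 h was 1.23 (0.603 to 2.64). TraF was thus above Control at 0 h, from 13 against 4 counts, and below it at 24 h, from 24 against 93 counts with a pooled ratio of 0.187 (0.114 to 0.296).

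The fitted change of st over 12 and 24 h in Control was 3.97 on the log2 scale (SE 0.913). It ranged from 3.08 to 7.86 when each library was left out, the latter without Control 0 h replicate 2, and it was 2.82 without both Control libraries that stood apart. Over all 12083 genes tested, 1.27% were called higher and 1.08% lower after the shift in Control. The change in TraF minus that in Control was -3.11 (SE 1.26), with a range from -7.00 to -2.22 over the libraries left out and -1.96 without both of those Control libraries. In that comparison 0.00828% of genes, which is tra alone, were called higher and 0% lower.

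The libraries with the most st in each testis genotype were also those with the most Uro, the urate oxidase gene of the Malpighian tubule. Control 24 h replicate 2 held 8.96 CPM of Uro against 0.420 to 2.18 CPM in the other 5, and 3.73 CPM of st against at most 1.06 CPM. TraF 12 h replicate 2 held 1.96 CPM of Uro against 0.310 to 0.641 CPM in the other 5, and 1.32 CPM of st against at most 0.469 CPM. Irk3, another tubule marker, was at 6.40 and 7.35 CPM in these libraries. Among the 12 testis libraries, 3 of the 7 tubule markers counted were highest in this Control library and 1 in this TraF library, and the summed level of the list was 213 to 246 CPM in Control and 163 to 214 CPM in TraF. Without Control 24 h replicate 2 the fitted change of st in Control was 3.36, and the other Control libraries kept the order of the hours. The part of tubule transcripts in these levels was not tested.

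In ovaries st stood at 1.91 and 1.70 CPM at 0 h, 2.69 and 2.34 CPM at 12 h, and 1.23 and 1.35 CPM at 24 h in w1118. In tra2ts it stood at 1.45 and 0.886 CPM at 0 h, 1.5 and 1.97 CPM at 12 h, and 3.01 and 2.13 CPM at 24 h. The order of the hours thus differed: 24 h was lowest in w1118 (-0.49 against 0 h, SE 0.377) and highest in tra2ts (1.10, SE 0.376). The pooled ratio of tra2ts to w1118 was 0.671 (0.479 to 0.937) at 0 h and 1.98 (1.44 to 2.75) at 24 h. The change over 12 and 24 h in tra2ts minus that in w1118 was 0.82 (SE 0.458). In that comparison 0.0114% of the 8784 genes tested, which is rtet alone, were called higher and 0% lower.

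The enzyme gene cn was low, and in each of the 4 genotypes all 4 shifted libraries were above both 0 h libraries. The share of all genes with this order was not counted. In Control testes it stood at 0.841 and 1.02 CPM at 0 h, 1.28 and 1.09 CPM at 12 h, and 1.92 and 2.28 CPM at 24 h. In TraF testes it stood at 1.11 and 0.916 CPM at 0 h, 1.29 and 1.28 CPM at 12 h, and 1.52 and 1.56 CPM at 24 h. The hours did not overlap in either testis genotype, and the 24 h differences were 1.15 (SE 0.284) in Control and 0.58 (SE 0.29) in TraF on the log2 scale. In ovaries the level at 0 h was 0.0829 to 0.213 CPM, from 2 to 5 counts, and after the shift it was 0.279 to 0.660 CPM, from 7 to 16 counts, over both genotypes. The fitted change in w1118 over 12 and 24 h was 1.5 (SE 0.573), and of all genes 0.182% were called higher and 0.49% lower in that comparison. In the later annotation an antisense RNA shares 1229 exonic bases with cn, and its reads cannot be told apart from those of cn without strand. The Control change over 12 and 24 h was 0.74 (SE 0.255), and 0.46 without both Control libraries that stood apart. In the same testis libraries the gut marker sum was also higher at each later hour in both genotypes. The highest cn in Control was in 24 h replicate 2, the Control library with the most Uro, and without it the Control change was 0.65. In TraF the library with the most Uro, 12 h replicate 2, was not the highest for cn. The part of tubule transcripts in the cn levels was not tested.

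The dioxygenase gene v showed no order of the hours. It had a lowest, median and highest level of 0.0415, 0.248 and 0.401 CPM in w1118 ovaries, 0.177, 0.480 and 1.69 CPM in tra2ts ovaries, 0.589, 0.749 and 1.34 CPM in Control testes, and 0.558, 0.762 and 1.02 CPM in TraF testes. The highest library was the one with the most Uro in tra2ts, Control and TraF. In tra2ts this was 24 h replicate 2, which held 12.1 CPM of Uro against 0.0771 to 2.61 CPM in the other 5 and was the highest of the 12 ovary libraries for 4 of the 7 tubule markers. Without it the fitted ovary genotype difference of v was 0.77 instead of 1.38, and that of ry was 0.58 instead of 1.08. The part of tubule transcripts in these levels was not tested.

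The xanthine dehydrogenase gene ry was a testis transcript in these libraries, and it was highest before the shift. In Control testes it stood at 10.7 and 9.16 CPM at 0 h, 7.82 and 5.50 CPM at 12 h, and 5.61 and 6.57 CPM at 24 h. In TraF testes it stood at 15.5 and 11 CPM at 0 h, 5.63 and 6.94 CPM at 12 h, and 6.96 and 4.36 CPM at 24 h. In both genotypes the 0 h libraries were above all 4 shifted libraries, with 24 h differences of -0.71 (SE 0.25) in Control and -1.24 (SE 0.249) in TraF on the log2 scale. Over all 12083 genes tested, 1.27% were called higher and 1.08% lower after the shift in Control. The share of all genes with the order seen for ry was not counted. The Control change of ry over 12 and 24 h was -0.64 (SE 0.21), and -0.77 without both Control libraries that stood apart. The genotypes overlapped, with a fitted difference of 0.13 (SE 0.144). In ovaries ry had 1 to 27 counts per library, at most 0.933 CPM.

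The sulfurase gene mal had the opposite tissue pattern to ry, whose product needs it. Its lowest, median and highest levels were 32.3, 39.6 and 59.0 CPM in w1118 ovaries and 39.1, 46.0 and 49.3 CPM in tra2ts ovaries. In testes they were 4.56, 6.79 and 7.52 CPM in Control and 5.47, 6.47 and 6.89 CPM in TraF. The genotypes overlapped in both tissues, and the fitted differences were 0.04 (SE 0.12) in ovaries and 0.00 (SE 0.112) in testes. In w1118 the 12 h libraries, at 35.3 and 32.3 CPM, were the lowest, and their difference from 0 h was -0.60 (SE 0.209).

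The prune gene pn was the steadiest of the 8. Its lowest, median and highest levels were 21.7, 24.8 and 27.7 CPM in w1118 ovaries, 23.3, 25.5 and 26.7 CPM in tra2ts ovaries, 16.2, 20.1 and 23.5 CPM in Control testes, and 14.9, 19.6 and 23.3 CPM in TraF testes. These ranges overlapped, except that tra2ts ovaries lay above TraF testes. The pooled ratio of Control testes to w1118 ovaries was 0.822 (0.782 to 0.864). None of its genotype or time differences within a tissue exceeded 0.30 on the log2 scale. In the later annotation 99 exonic bases of pn are shared with Nmd3 on the other strand.

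**Figure D4:**
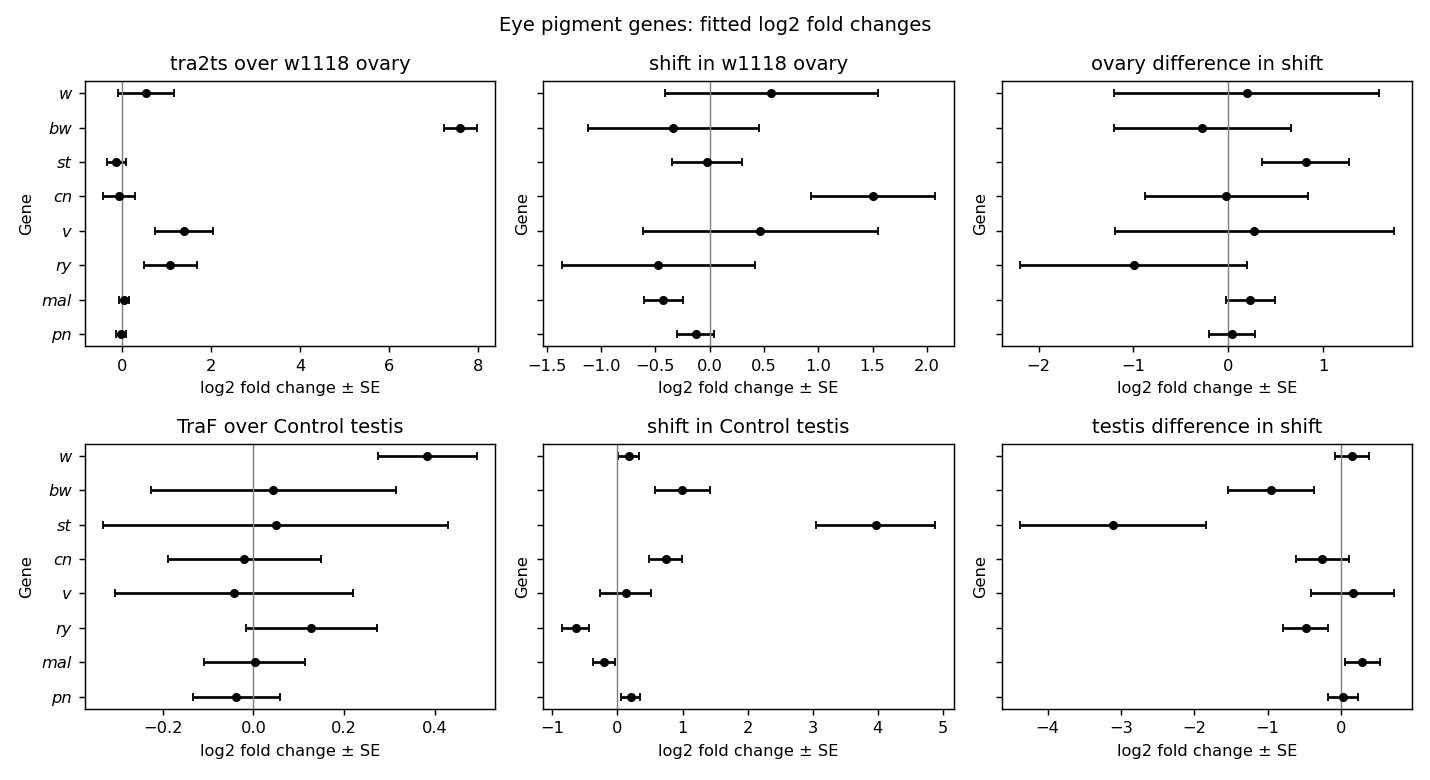
Fitted log2 fold change (point) and SE (bar) of each gene for the genotype difference, the change over 12 and 24 h in the control genotype and the difference of that change between genotypes, in ovaries (top) and testes (bottom); the axes differ between panels. The values farthest from 0 are bw in the ovary genotype difference (7.60) and st after the shift in Control testes (3.97).

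A further 60 genes of the pathway were in the files: ommochrome and pteridine enzymes, molybdenum cofactor and purine end product enzymes, purine synthesis, the pn partner awd, pigment granule sorting and ABCG transporters. They were tested in the same edgeR fits, with p-values adjusted over all genes, 52 of them in ovaries and 54 in testes. Between ovary genotypes none was higher and 1 was lower in tra2ts (Prat), where 2.58% of all genes were higher and 1.43% lower, with a median log2 fold change of -0.09 for the list against 0.00 over all genes. Between testis genotypes 1 was higher (Hn) and 1 lower (Sptr) in TraF, where 2.3% of all genes were higher and 3.06% lower, with medians of 0.01 for the list and -0.01 for all genes. None was called for the difference in change after the shift, in either tissue (unadjusted p under 0.05 in 0 of 52 in ovaries and 1 of 54 in testes; DESeq2 also called none). After the shift alone, none was called in w1118 ovaries (5 with an unadjusted p under 0.05; DESeq2 called 2), and in Control testes 3 were higher (pr, CG11069 and CG31121) and none was lower, where 1.27% of all genes were higher and 1.08% lower. In Control testes 15 of the 54 had an unadjusted p under 0.05, as did 1861 of all 12083 genes. The medians there were 0.01 for the list and 0.01 for all genes.

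The 2 pathway genes called between testis genotypes were both listed with the pteridine genes and went in opposite directions. They were among 54 pathway genes tested, and over all genes 648 of 12083 were called. Hn, phenylalanine hydroxylase, which uses a pteridine cofactor, stood at 3.28 and 0.95 CPM at 0 h, 0.885 and 0.759 CPM at 12 h, and 1.47 and 2.34 CPM at 24 h in Control. In TraF it stood at 12.1 and 10.5 CPM at 0 h, 7.54 and 4.60 CPM at 12 h, and 12.0 and 7.28 CPM at 24 h. All 6 TraF libraries were above all 6 Control libraries, by 2.62 on the log2 scale (SE 0.28, adjusted p = 2.4e-04). Sptr, sepiapterin reductase, was lower in TraF by -0.68 (SE 0.104, adjusted p = 0.0028). It stood at 4.49 to 9.03 CPM in TraF and 7.19 to 13.4 CPM in Control, and within each hour both TraF libraries were below both Control libraries. Both calls held when any of the 12 testis libraries was left out. The gut marker sums given above for w belong to the same libraries, and their part in these calls was not tested.

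The other calls were lost in most of the fits that left out a library. Prat, the first enzyme of purine synthesis, stood at 152 to 191 CPM in w1118 and 119 to 143 CPM in tra2ts ovaries, without overlap, and was lower in tra2ts by -0.49 (SE 0.111, adjusted p = 0.040). Its adjusted p ranged from 0.0236 to 0.143 over the libraries left out, and the call was lost in 9 of 12. In Control testes pr, a pteridine synthesis enzyme, stood at 12.9 and 8.18 CPM at 0 h and at 16.1 to 20.4 CPM after the shift (0.81, SE 0.183, adjusted p = 0.048). The ABC transporter gene CG11069 stood at 4.88 and 4.82 CPM at 0 h and at 7.12 to 9.57 CPM after it (0.87, SE 0.176, adjusted p = 0.033). The related CG31121 stood at 0.925 and 0.543 CPM at 0 h and at 2.04 to 3.59 CPM after it (1.97, SE 0.416, adjusted p = 0.039). These 3 calls were lost in 11, 8 and 9 of the 12 fits that left out a library, and none of the 3 was called in the fit without both Control libraries that stood apart. The log2 fold changes there were 1.00 for pr (adjusted p = 0.108), 0.67 for CG11069 (adjusted p = 0.285) and 2.04 for CG31121 (adjusted p = 0.187). The gut marker sum was higher after the shift in these libraries too, and its part was not tested. In TraF, pr stood at 13 and 9.25 CPM at 0 h and at 15.6 to 23.7 CPM after the shift.

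Between w1118 ovaries and Control testes, 33 of the 54 pathway genes tested were higher in ovaries, 11 were lower and 10 were not called, where 35.8% of all 12411 genes were higher and 54% lower. The median log2 fold change of the list was 1.13, against -0.81 over all genes. Purine synthesis had 7 of 9 genes higher and 1 lower, with a median of 2.94, and the pigment granule group had 11 of 18 higher and 2 lower. Of 7 pteridine genes 5 were higher and 2 lower, of 11 ABCG transporters 6 were higher and 2 lower, and of 3 ommochrome genes 2 were higher and 1 lower. In the molybdenum cofactor and purine end product group 3 of 5 were lower and 1 was higher. The 6 largest differences were those of AOX4, Uro, CG9664, cd, ras and Prat. IMP dehydrogenase, encoded by ras, stood at 264 to 353 CPM in w1118 ovaries and 8.82 to 12.1 CPM in Control testes (4.70, SE 0.122, adjusted p = 3.2e-16), and the difference of Prat was 4.53 on the log2 scale (SE 0.118, adjusted p = 3.5e-16). On the other side, cd, the peroxidase of late ommochrome synthesis, stood at 1.57 to 2.41 CPM in Control testes and at most 0.182 CPM in w1118 ovaries (-4.92, SE 0.327, adjusted p = 1.0e-10). The ABCG transporter gene CG9664 stood at 23.5 to 37.5 CPM in Control testes and 0.557 to 2.13 CPM in w1118 ovaries (-5.27, SE 0.133, adjusted p = 2.4e-16). The aldehyde oxidase gene AOX4 (-7.10, SE 0.468, adjusted p = 2.1e-10) and Uro (-6.14, SE 1.24, adjusted p = 1.7e-04) were nearly absent from w1118 ovaries, at no more than 0.0456 and 0.0911 CPM.

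**Figure D5:**
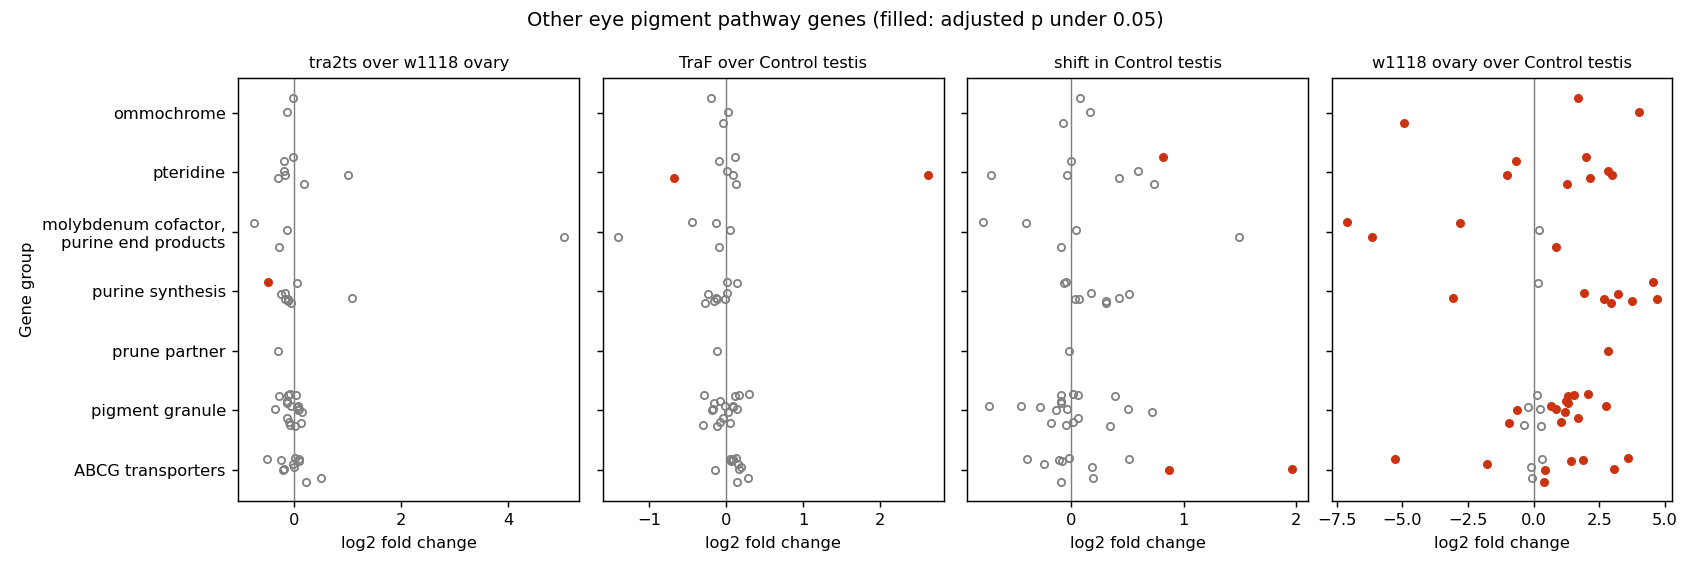
Fitted log2 fold change of each other pathway gene by gene group in 4 comparisons, filled where the adjusted p was under 0.05; the axes differ between panels. In 3 of the panels few points are filled (Prat; Hn and Sptr; pr, CG11069 and CG31121), and between tissues 33 genes are filled to the right of 0 and 11 to the left.

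The genes most like bw or st over the groups were found from the root mean square difference between centred log2 CPM profiles. The profiles ran over the 6 group means of a tissue. Genes averaging 1 CPM or more were compared, provided that they had counts in every group. For bw in testes these were CG9095 (0.119), ph-d (0.132) and CG43078 (0.134) of 10907 genes. For bw in ovaries they were Dscam4 (1.27), Cyp12c1 (1.42) and CG32199 (1.71) of 7622 genes, and none of the genes compared came near the bw profile. Genes without counts in a w1118 group were not compared, so this does not cover genes absent there. For st in ovaries they were CR18166 (0.188), IFT52 (0.189) and cuff (0.230). In testes st had a mean of 0.791 CPM, and no like genes were sought.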

How the data were processed

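RNA was measured in 24 gonad libraries in 12 groups of 2, grouped by the tissue, genotype and hours given in the labels. Libraries were made from 200 ng of total RNA with a kit that does not mark strand and sequenced as 76 bp single-end reads, per the labels' protocols. The authors deposited whole-number counts per gene. TopHat 1.4.1, HTSeq and the dm3 build are named in the submitters' processing notes; the HTSeq version, annotation and strand setting are not given in the sources used here. The summary lines that name no gene were left out of totals: reads outside genes came to 1.07% to 2.48% and ambiguous reads to 1.88% to 4.3%. Totals per library limit precision: 1 count is worth at most 0.062 CPM, and levels under 1 CPM rest on few counts.

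Levels are CPM, computed on the gene total of each library with no further scaling. Fold changes come from edgeR 4.0.16 in R 4.3.3 (TMM scaling, filterByExpr by group, prior count 0.125, 1 mean per group, quasi-likelihood test, Benjamini-Hochberg over all genes tested, threshold 0.05). Comparisons within a tissue were fitted over its 12 libraries. The comparison between tissues was fitted over all 24 libraries, and only its contrast was limited to the w1118 and Control groups. The 7 comparisons were genotype, change after the shift in the control genotype and the difference of that change, each in both tissues, and tissue. The procedure was tested on simulated data. Count ratios have exact 95% intervals (conditional binomial). The members and the pathway and marker lists were chosen with earlier results of these data known. The text names the 8 members, pathway genes called (at most 6 per comparison, by size), 3 genes most like bw and st, and tra; Sox100B, the eye, gut and tubule markers, the neighbours of bw and rtet were named after their values were seen. Symbols, exon lengths and gene order come from BDGP6 (Ensembl), a later build than the files', so no coordinates are given. KFase, AOX1, Vps16A and CG3164 were not analysed here, and Mocs2A, Mocs2B, Muted and Snapin had 0 counts in all 24 libraries.

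Alternatives were a replicate block, DESeq2 1.42.0, RLE scaling, testing of all genes with a count, each library left out in turn and, added after seeing the data, Control 0 h replicate 1 (gut proteases) and Control 12 h replicate 1 (accessory gland) left out together. No replicate pair agreed within sampling noise. The labels say that the 2 libraries of a group came from independent dissections.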

Additional observations from a re-analysis of the deposited data

How the results depend on the processing

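No called pathway gene changed direction under any alternative run. The numbers of genes called under RLE scaling stayed within 1.5 times those of the report. Without a filter on low counts, 192 genes were called after the shift in w1118 ovaries instead of 59, and 1 pathway gene instead of 0. DESeq2 called 629 genes between ovary genotypes instead of 353 (2 pathway genes instead of 1), 419 after the shift in w1118 ovaries (2 pathway genes), 479 after the shift in Control testes instead of 285, and 3 for the difference in change in testes instead of 1. Without Control 0 h replicate 1 and Control 12 h replicate 1, 19 genes were called after the shift in Control testes, and 0 pathway genes instead of 3. The cause was not tested.

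The labels give no shared source for libraries of the same number. Same-numbered libraries had correlated deviations over 0.1 in 12 of 15 pairs of groups in each tissue, and not in all (r from -0.48 to 0.40 in ovaries and 0.0198 to 0.39, all above 0, in testes), so the numbers were not taken as pairs, and the labels do not settle whether they share a batch. With the replicate block, 0 genes were called for the difference in change in ovaries instead of 1 (rtet), 477 after the shift in Control testes and 867 between testis genotypes instead of 648; in 6 of the 7 comparisons the number of pathway genes called was the same.

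Leaving out each library gave 167 to 447 genes between ovary genotypes (0 to 2 pathway genes), 372 to 1030 between testis genotypes instead of 648 (2 to 3), 0 to 1 and 1 to 25 for the difference in change in ovaries and testes, 2 (without w1118 0 h replicate 2) to 183 after the shift in w1118 ovaries, and 9 (without Control 0 h replicate 1) to 622 (without Control 12 h replicate 2) after it in Control testes (0 to 4). Between tissues, leaving out each of the 12 w1118 and Control libraries gave 11102 to 11276 (43 to 46). The lone library of a group was assumed to vary like the others. Prat also lost its call without a filter (adjusted p = 0.0627), as did pr (0.0559).

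Depth limits cn, v, st, the ovary levels of w and ry and the w1118 ovary level of bw, which rest on few counts, so that small differences among them were not detectable.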
